A study of Mus musculus with 24 samples.

Results

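The genes described here encode subunits of the 5 protein complexes of oxidative phosphorylation. They were taken by symbol: names beginning Nduf and a subunit letter and number, Sdha to Sdhd, names beginning Uqcr, Cox4 to Cox8 names with an isoform letter, and names beginning Atp5. The rule left out assembly factors (Ndufaf names) and Ndufa4l2, and used no measured value. It found 76 of the 17097 genes measured: 32 of complex I, 4 of complex II, 7 of complex III, 16 of complex IV and 17 of complex V. Ndufa4 was counted with complex IV, where its protein is now placed, and Ndufs5-ps carries a pseudogene symbol. All but 1, Cox7b2, passed the filter on dim probe sets, so 75 of the 11844 genes tested were members. The symbols Cox4i1, Cox4i2, Ndufab1 and Cyc1, which also name respiratory chain proteins, fell outside the rule and are given apart. None of the 13 subunits encoded in mitochondrial DNA had a named probe set here, so every member is a nuclear gene.

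The arrays measured mouse RNA from neural fraction cells isolated with magnetic beads from the stroma of orthotopic oral tumours. The tumours had grown from human SCC25 oral carcinoma cells in NSG mice (NOD-SCIDγ), an immunodeficient host, and the SCC25 cells carried the hairpins. The 4 hairpins were the non-targeting PLKO, shEGR2_40.9 and shEGR2_38.9 against EGR2, and shGAL against GAL. Tumours with each hairpin were exposed either to a control diet or to a palmitic acid-rich (PA-rich) one, giving 8 groups of 3 arrays. The silenced genes are human and lie in the tumour cells, so these mouse arrays do not check the silencing. The series calls the 3 arrays of a group technical replicates and does not say how many animals they came from. So the p-values reflect the spread among arrays, which may be technical. All values are on the log2 scale, where 1 unit is a doubling, and a level is a log2 RMA intensity of 1 probe set per gene. A gene was called where limma's adjusted p (Benjamini-Hochberg over 11844 genes) was below 0.05. Counts of calls with an array left out or another setting are given without the share of all genes under that setting. A higher or lower count there is therefore not read as particular to the members.

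Oxidative phosphorylation takes place in the inner mitochondrial membrane. Complex I (NADH dehydrogenase) and complex II (succinate dehydrogenase) pass electrons to ubiquinone, complex III passes them to cytochrome c, and complex IV (cytochrome c oxidase) passes them to oxygen. Complexes I, III and IV pump protons, and complex V, the ATP synthase, uses the proton gradient to make ATP. Complex II is the only one with no subunit encoded in mitochondrial DNA, and it also works in the citric acid cycle. Axons and the glia that ensheath them depend on this supply of ATP.

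One array stood apart: the control diet shEGR2_38.9 replicate 3. Its Gapdh control probe sets differed by 0.76 between the 3' and 5' ends, against -0.12 to 0.08 on the others, and its mean correlation with its own group was 0.978, against 0.986 to 0.996. Results that rest on it are given without it as well where leaving it out ended a call or moved a value by more than 1.5 times. Of 10 Schwann cell markers 7 were on the array and 5 passed the dim filter, and their mean lay between 8.95 and 9.19 on all 24 arrays. Erbb3, a receptor of Schwann cells, lay between 10.66 and 11.30 over the groups, while S100b and Gfap were below the filter. Of 9 neuron markers 4 passed; Tubb3 had group means of 8.89 to 9.63, and Elavl4, Nefl, Nefm, Snap25 and Uchl1 were below the filter. Of 12 keratinocyte markers 10 passed, and Krt14 had group means of 13.14 to 13.22. Of the markers of the labelled neural fraction, 5 of the 7 for Schwann cells on the array and 4 of the 9 for neurons thus passed the filter.

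The start regions of 3 members that are described array by array below are shown first, because many respiratory chain genes are known to share binding motifs for NRF1, ETS family factors (such as GABP) and YY1 near their start. Each run is the 250 bases before the annotated start in RefSeq, build GRCm38.p6, read 5′ to 3′ along the gene. Capitals mark a motif that was found. Atp5pb, Ndufa4, Ndufb10 and Ndufb8, also described array by array below, had none of these motifs in their 250 bases and are not shown.
Ndufa6 (chr15:82354292-82354541, minus strand; capitals: NRF1 core): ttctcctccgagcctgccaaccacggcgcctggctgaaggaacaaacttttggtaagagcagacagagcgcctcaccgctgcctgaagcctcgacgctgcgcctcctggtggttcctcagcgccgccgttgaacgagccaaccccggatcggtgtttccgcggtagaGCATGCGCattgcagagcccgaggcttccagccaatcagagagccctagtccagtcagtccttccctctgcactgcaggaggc
Ndufs3 (chr2:90904722-90904971, minus strand; capitals: ETS): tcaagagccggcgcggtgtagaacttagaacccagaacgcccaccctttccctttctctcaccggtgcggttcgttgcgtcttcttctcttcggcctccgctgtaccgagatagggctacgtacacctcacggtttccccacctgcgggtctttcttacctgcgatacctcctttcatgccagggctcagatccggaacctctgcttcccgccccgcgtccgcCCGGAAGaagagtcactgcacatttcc
Ndufc2 (chr7:97399753-97400002, plus strand; none found): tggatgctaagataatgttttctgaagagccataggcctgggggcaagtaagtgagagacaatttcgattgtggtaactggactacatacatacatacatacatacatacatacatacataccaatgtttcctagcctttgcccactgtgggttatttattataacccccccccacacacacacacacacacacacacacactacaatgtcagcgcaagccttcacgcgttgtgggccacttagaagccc
Windows of 300 bases, 250 before to 50 after the start, were available for 63 of the 76 members and were searched on both strands. The letters GCATGCGC of the NRF1 motif were found in 10 members (15.9%), against 5.47% of the 9463 tested genes with a window and 3.05% of all 27025 genes. The ETS letters CCGGAAG were found in 15 members (23.8%), against 18.6% of tested and 9.93% of all genes, and the YY1 letters AAGATGGCG in 7 (11.1%), against 3.33% and 1.64%. Of the 7 members with the YY1 letters, 5 encode complex I subunits, and 6 of the 15 with the ETS letters encode complex V subunits. The letters GCATGCGC and AAGATGGCG were chosen after their values were seen, so their shares beside all genes are not read as a result. These matches are descriptions of letters in the window, and binding was not measured.

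Across the 8 groups the members lay highest in PLKO tumours on the control diet. The mean of that group was the highest of the 8 for 53 of the 75 members (70.7%), against 15.5% of all genes tested. For 11 other members (14.7%) the highest group was shEGR2_40.9 on the PA-rich diet, against 14.1% of all genes. The lowest mean lay with shEGR2_38.9 on the control diet for 44 members (58.7%), against 35% of all genes. Without replicate 3 of that group, an alternative added after seeing the data, this number was 29 (27.4% of all genes remained lowest there), and PLKO on the control diet still held the highest mean for 53. The steps were small: the range of a member's 8 group means had a median of 0.33, from 0.10 to 0.77, and the SD within a group had a median of 0.07. With bulk RNA, fewer cells of a type and less RNA per cell cannot be told apart.

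The median deviation of all members from their own mean over 24 arrays was 0.10, 0.18 and 0.16 on the 3 arrays of PLKO on the control diet. It was -0.07, 0.03 and 0.06 for PLKO on the PA-rich diet, and -0.08, 0.02 and -0.08 for shGAL on the control diet. The 3 shEGR2_38.9 arrays on the control diet had -0.05, -0.06 and -0.20, and those of shEGR2_40.9 -0.005, 0.03 and -0.04. Every PLKO array on the control diet lay above each of the other 21 arrays, of which the highest had 0.09. Over all genes the same median lay between -0.10 and 0.03 on the 24 arrays. The replicate 3 that stood apart had -0.33 over complex I, against -0.12 to 0.22 on the other arrays, and -0.25 over complex IV, against -0.06 to 0.14, but 0.05 over complex II, within the range of the others.

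**Figure D1:**
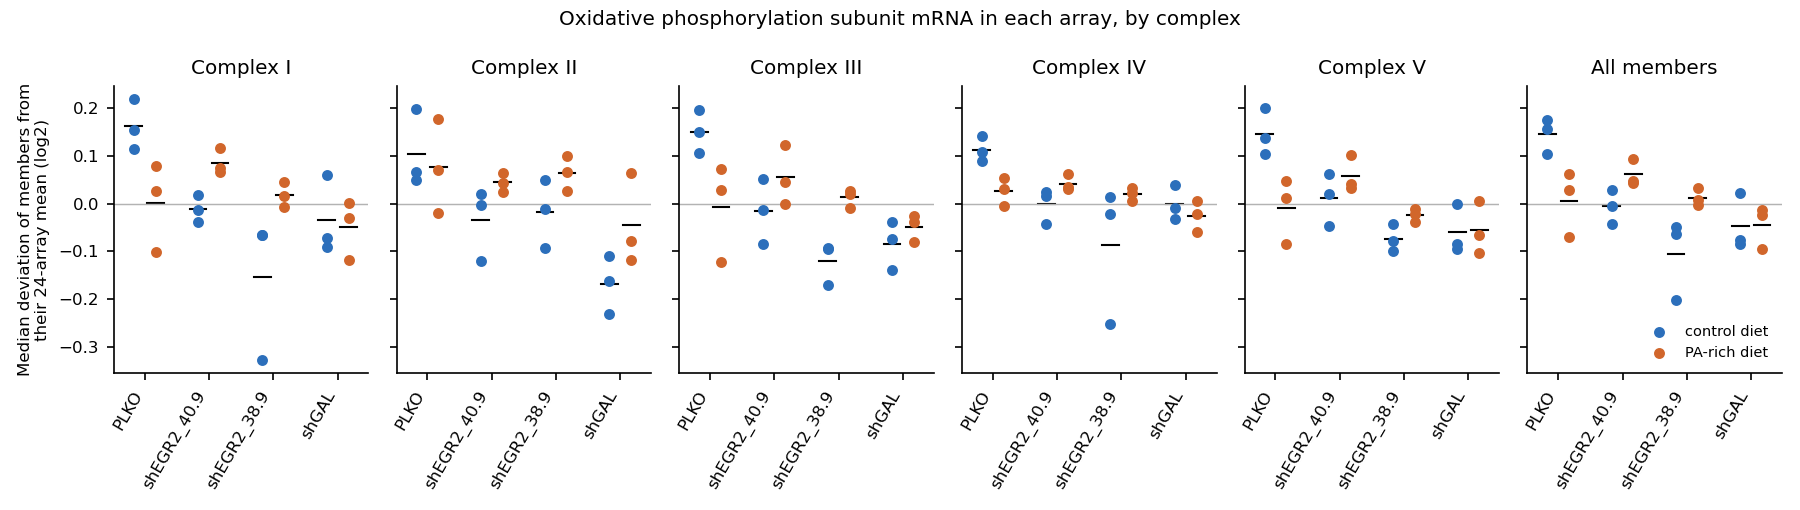
Median deviation (log2) of the members of each complex from their own mean over 24 arrays, by group; each point is 1 array and each bar the mean of 3. The PLKO control diet arrays lie at 0.10 to 0.20 for complex V and at 0.12 to 0.22 for complex I, and the control diet replicate 3 of shEGR2_38.9 lies at -0.33 for complex I.

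**Figure D2:**
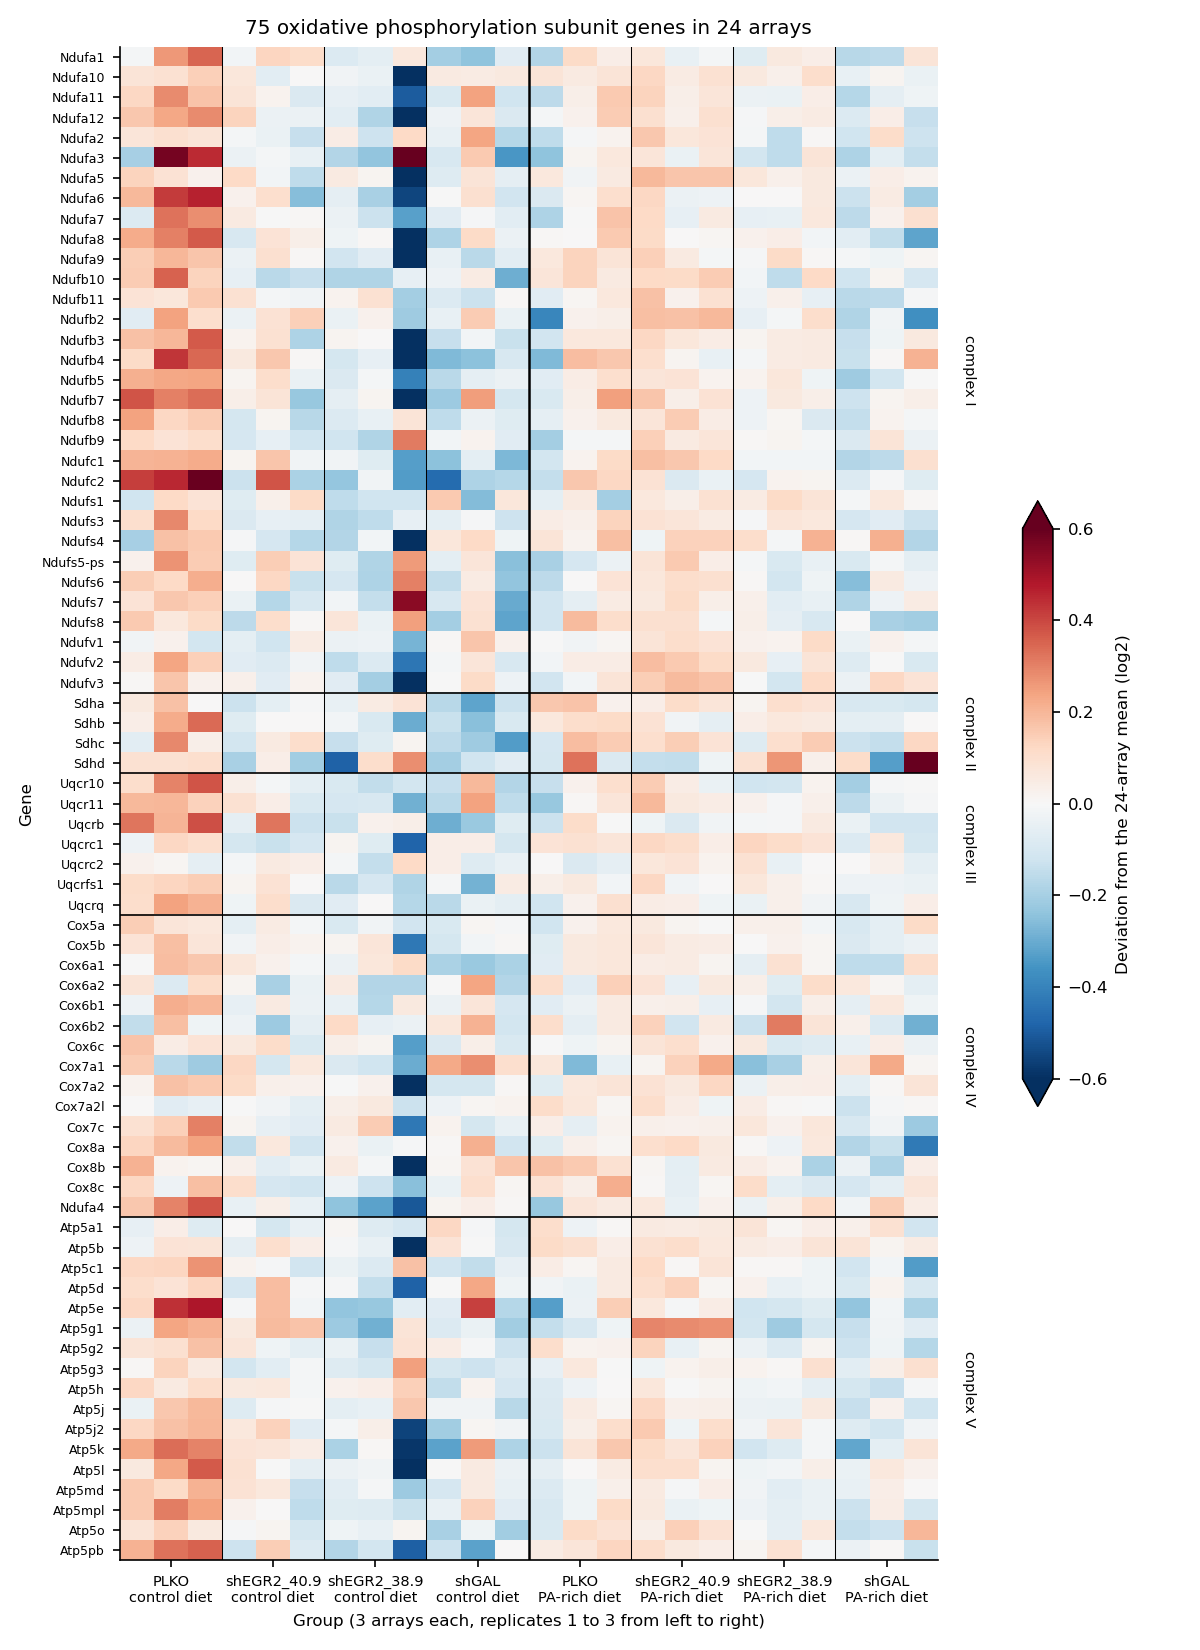
Deviation of each of the 75 members (vertical axis, ordered by complex) from its own mean over the 24 arrays (horizontal axis, by group), with colour running from -0.6 to 0.6 on the log2 scale. Most members are above their mean in the 3 PLKO control diet arrays, and 1 shEGR2_38.9 control diet array is low for many members of complexes I and IV.

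A moderated F test of any difference among the 8 groups called 27 of the 75 members, where 46.1% of all genes tested were called. The group means of the members had a median range of 0.33, beside 0.34 for all genes. By complex it called 13 of 32 in complex I, 2 of 4 in complex II, 2 of 7 in complex III, 4 of 15 in complex IV and 6 of 17 in complex V. The largest F of each complex belonged to Ndufc2 (7.09), Sdha (5.44), Uqcrb (4.66), Ndufa4 (8.55) and Atp5g1 (7.15). Without replicate 3 of PLKO on the control diet the test called 17.

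On the control diet, 37 members fell and 0 rose with shEGR2_38.9 against PLKO; 19.1% of all genes tested were called lower and 11.2% higher. The median change was -0.26 over the members and -0.08 over all genes, and 73 of 75 members lay below 0. Complex I had 18 of 32 called, with a median of -0.35, and complex III had 6 of 7, with a median of -0.28. Complex V had 9 of 17 (median -0.28), complex IV 3 of 15 (median -0.19) and complex II 1 of 4 (median -0.14). Without replicate 3 of shEGR2_38.9 the count was 34 and the median -0.21, and the order of the complexes changed. The medians were then -0.26 for complex I (18 called), -0.22 for complex II (1), -0.26 for complex III (4), -0.10 for complex IV (2) and -0.19 for complex V (9). In scan batch 1, the only one that held a control diet array of both hairpins, the median difference was -0.23 and 70 of 75 members were lower.

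With shGAL on the control diet, 21 members fell and 0 rose, where 9.84% of all genes tested were called lower and 7.15% higher. The median was -0.22 over the members and -0.01 over all genes, and 68 members lay below 0. Counts were 9 of 32 in complex I (median -0.24), 3 of 4 in complex II (-0.30), 4 of 7 in complex III (-0.21), 2 of 15 in complex IV (-0.15) and 3 of 17 in complex V (-0.21). The count was 11 without replicate 2 of PLKO, 13 without replicate 1 of shGAL and 41 without replicate 3 of shEGR2_38.9, an array that enters only the estimate of the spread. That estimate changes for every gene, and the share of all genes called in these 3 fits is not given. In scan batch 2, which held both hairpins, the median difference was -0.27 and 70 members were lower.

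With shEGR2_40.9 on the control diet, 9 members fell and 0 rose, where 4.94% of all genes tested were called lower and 7.19% higher. The median was -0.14 over the members and -0.04 over all genes, and 71 members lay below 0. The calls were 5 in complex I, 2 in complex IV and 2 in complex V, and in scan batch 5 the median difference was -0.09. The count was 2 without PLKO replicate 2, 3 without PLKO replicate 3, 4 without shEGR2_40.9 replicate 1, 2 without shEGR2_40.9 replicate 3, and 22 without replicate 3 of shEGR2_38.9. These 3 comparisons share the 3 PLKO control diet arrays, so their calls are not independent of each other, and no overlap between them is read as a result.

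The control diet arrays of each hairpin were also compared without a model. All 3 shEGR2_38.9 arrays lay below all 3 PLKO arrays for 38 of 75 members, where this held for 23.5% of all genes; for the 2 arrays other than replicate 3 it was 52 members and 31.8% of genes. The same was true for 38 members with shEGR2_40.9, where it held for 16.3% of all genes, and for 43 with shGAL, where it held for 17.2%. All 9 arrays of these hairpins lay below the PLKO arrays for 22 members and 4.42% of all genes, which is not read as a result. The 8 members called lower with all 3 hairpins are given array by array below. That their arrays lie below PLKO nearly follows from this choice and adds no support. Where a member had other probe sets above the filter, these 48 probe sets of 36 members lay below 0 in 43 cases with shEGR2_38.9, in 43 with shEGR2_40.9 and in 40 with shGAL. Of the 11844 genes tested, 7667, 7068 and 6097 lay below 0 in that order. For members that were called, the other probe sets had the same sign in 18 of 20, 2 of 2 and 7 of 10 cases. These probe sets read the same RNA on the same arrays, so they are not separate support.

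**Figure D3:**
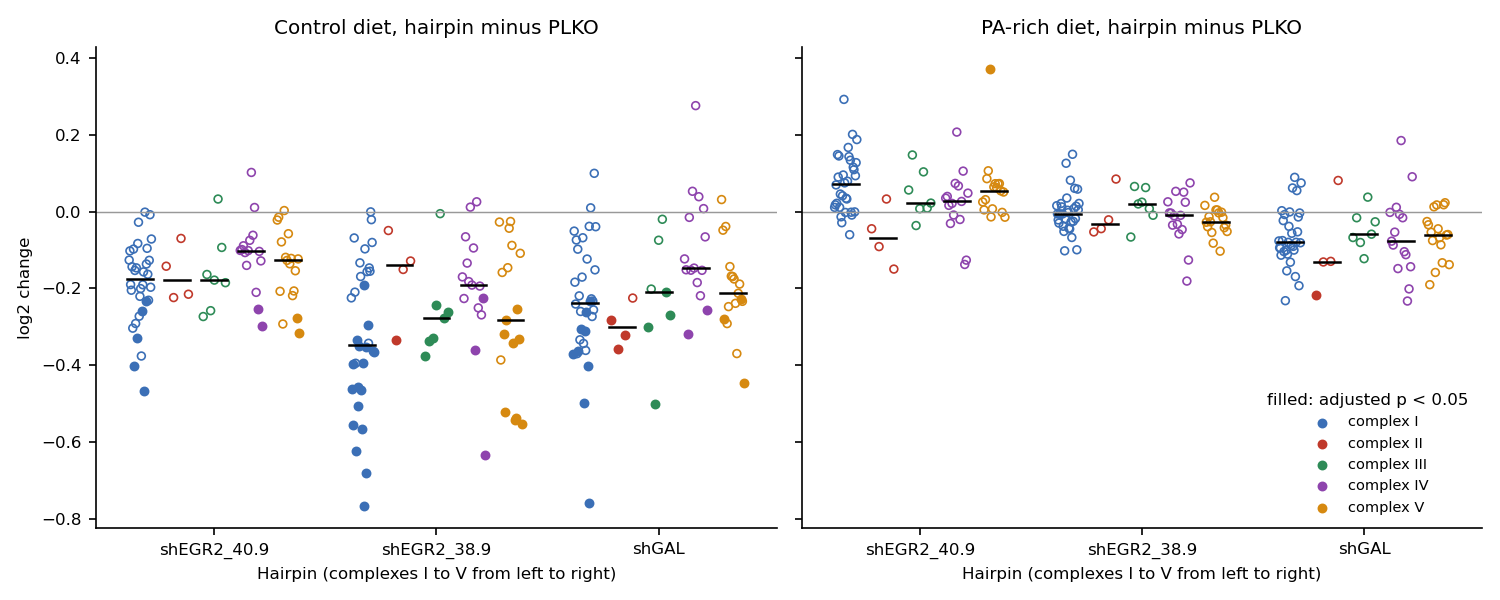
Log2 change against PLKO on the same diet for each of the 75 members, by complex and hairpin, with the control diet on the left and the PA-rich diet on the right. Each point is 1 gene, filled where limma's adjusted p was below 0.05, and the black bar is the median. On the control diet the medians with shEGR2_38.9 run from -0.35 in complex I to -0.14 in complex II. Without replicate 3 of shEGR2_38.9, not drawn so, they run from -0.26 in complex III to -0.10 in complex IV. With shGAL on the control diet the lowest median, -0.30, is that of complex II.

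Complex I has the largest set of members. Ndufc2, an accessory subunit of its membrane arm, read 9.35, 9.39 and 9.53 in PLKO on the control diet. It read 8.70, 8.92 and 8.60 with shEGR2_38.9, 8.48, 8.75 and 8.77 with shGAL, and 8.81, 9.31 and 8.75 with shEGR2_40.9. All 9 arrays of the other hairpins lay below the 3 PLKO arrays, with 1 shEGR2_40.9 array, 9.31, close to them. The change was -0.68 (SE 0.12, limma adjusted p = 0.000149) with shEGR2_38.9, -0.76 (SE 0.12, adjusted p = 0.000148) with shGAL and -0.47 (SE 0.12, adjusted p = 0.0117) with shEGR2_40.9.

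Ndufa6, an accessory subunit of the LYR family whose start region holds the NRF1 core letters shown above, read 8.94, 9.16 and 9.21 with PLKO. It read 8.69, 8.55 and 8.19 with shEGR2_38.9, 8.77, 8.84 and 8.48 with shEGR2_40.9, and 8.74, 8.84 and 8.63 with shGAL. The hairpin arrays all lay below the PLKO arrays, and replicate 3 of shEGR2_38.9 was the lowest. Changes were -0.62 (adjusted p = 0.000189), -0.40 (adjusted p = 0.0203, or 0.0513 with the scan batch as a replicate block) and -0.36 (adjusted p = 0.0273) in that order. Ndufs3, a core subunit of the arm that carries the iron-sulphur clusters, read 10.45, 10.64 and 10.47 with PLKO and 10.17, 10.20 and 10.30 with shEGR2_38.9. Its values were 10.26, 10.30 and 10.30 with shEGR2_40.9, and 10.29, 10.34 and 10.23 with shGAL. The 3 groups sat close together below PLKO, with changes of -0.30 (adjusted p = 0.00103), -0.23 (adjusted p = 0.016) and -0.23 (adjusted p = 0.0127).

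Ndufb10 and Ndufb8 are accessory subunits of the membrane arm. Ndufb10 read 10.49, 10.70 and 10.47 with PLKO, 10.16, 10.16 and 10.29 with shEGR2_38.9, 10.29, 10.18 and 10.20 with shEGR2_40.9, and 10.31, 10.39 and 10.05 with shGAL. Its changes were -0.35 (adjusted p = 0.00351), -0.33 (adjusted p = 0.0131) and -0.31 (adjusted p = 0.016). Ndufb8 read 11.15, 11.03 and 11.06 with PLKO, 10.83, 10.86 and 10.99 with shEGR2_38.9, 10.80, 10.92 and 10.74 with shEGR2_40.9, and 10.76, 10.87 and 10.84 with shGAL. Again no hairpin array reached the lowest PLKO array, and the changes were -0.19 (adjusted p = 0.0399), -0.26 (adjusted p = 0.0143) and -0.26 (adjusted p = 0.0107). The other Ndufb8 probe set above the filter, with a mean of 6.74, differed by 0.04, -0.12 and -0.05 in that order.

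Other members of complex I moved by different amounts. Ndufa12 fell by 0.56 (adjusted p = 0.000662), Ndufb4 by 0.57 (adjusted p = 0.00254) and Ndufa8 by 0.51 (adjusted p = 0.00207) with shEGR2_38.9. The 3 changes without that group's replicate 3 were -0.35 (adjusted p = 0.00125), -0.37 (adjusted p = 0.0225) and -0.31 (adjusted p = 0.0113). Ndufv2, a core subunit with an iron-sulphur cluster near the NADH site, fell by 0.36 (adjusted p = 0.0011). Ndufv1, its partner that holds the flavin, changed by -0.08, or 0.002 without replicate 3, and was not called. The core subunit Ndufs7 changed by -0.00, or -0.21 (adjusted p = 0.0937) without replicate 3, and was not called either; its other probe set differed by -0.24 with all arrays. Ndufb7 read 10.63, 10.55 and 10.58 with PLKO and 10.19, 10.26 and 9.0 with shEGR2_38.9. Its change of -0.77 (adjusted p = 0.00586), the largest of any member there, was -0.36 (adjusted p = 0.0242) without replicate 3. Ndufa10 read 11.17, 11.15 and 10.17 with shEGR2_38.9, and its change of -0.46 (adjusted p = 0.0225) was -0.13 (adjusted p = 0.0666) without that array.

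In complex II, 3 of 4 members were called with shGAL and 1, Sdhb, with shEGR2_38.9. Sdha, the catalytic flavoprotein, read 11.05, 11.17 and 11 with PLKO on the control diet and 10.83, 10.68 and 10.87 with shGAL. On the PA-rich diet it read 11.16, 11.17 and 11.02 with PLKO and 10.90, 10.90 and 10.89 with shGAL. The shGAL arrays lay below the PLKO arrays on both diets. The change was -0.28 (SE 0.07, adjusted p = 0.00564) on the control diet and -0.22 (SE 0.07, adjusted p = 0.0354) on the PA-rich diet, the latter -0.18 (adjusted p = 0.125) with the scan batch as a replicate block. With shEGR2_38.9, Sdha read 10.95, 11.05 and 11.08, which overlapped PLKO. Sdhb, the iron-sulphur subunit, read 10.64, 10.82 and 10.94 with PLKO, 10.59, 10.51 and 10.31 with shEGR2_38.9 and 10.47, 10.35 and 10.51 with shGAL. Its changes were -0.34 (adjusted p = 0.0022) and -0.36 (adjusted p = 0.00257). Sdhc, 1 of the membrane anchors, fell by 0.32 (SE 0.10, adjusted p = 0.0273) with shGAL. Sdhd, the other anchor, was uneven with shEGR2_38.9, at 6.74, 7.34 and 7.51 against 7.32, 7.32 and 7.33 with PLKO. With shEGR2_40.9, limma called 0 of the 4 members.

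In complex III, Uqcrb, the ubiquinone-binding subunit, read 10.78, 10.66 and 10.85 with PLKO and 10.17, 10.24 and 10.39 with shGAL, a change of -0.50 (SE 0.09, adjusted p = 0.000772). It read 10.33, 10.49 and 10.49 with shEGR2_38.9 (-0.33, adjusted p = 0.0105, or 0.0534 with the scan batch as a replicate block) and 10.41, 10.78 and 10.33 with shEGR2_40.9, where 1 array overlapped PLKO. Uqcrfs1, the Rieske iron-sulphur protein, fell by 0.28 (adjusted p = 0.00495) with shEGR2_38.9 and by 0.21 (adjusted p = 0.0454, or 0.149 with the block) with shGAL. Uqcr10, a small subunit, fell by 0.38 (SE 0.09, adjusted p = 0.00412) and by 0.30 (adjusted p = 0.0308, or 0.0519 with the block). Uqcrq had other probe sets that went the other way: its change with shEGR2_38.9 was -0.26 (adjusted p = 0.00786) from the probe set with the highest mean, and 0.13 from the mean of all its probe sets. Of the core proteins, Uqcrc1 fell by 0.24 (adjusted p = 0.0436) with shEGR2_38.9, a change that was -0.09 (adjusted p = 0.319) without replicate 3 and -0.25 (adjusted p = 0.0635) with the block, and Uqcrc2 changed by -0.01, or -0.07 without replicate 3.

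In complex IV, Ndufa4 had the largest F of any member. It read 10.97, 11.11 and 11.19 with PLKO on the control diet and 10.57, 10.49 and 10.30 with shEGR2_38.9. It read 10.76, 10.84 and 10.76 with shEGR2_40.9 and 10.83, 10.85 and 10.82 with shGAL. The shEGR2_38.9 arrays lay below those of every other hairpin on that diet, and all 3 hairpins lay below PLKO. Changes were -0.64 (SE 0.08, adjusted p = 5.29e-06), -0.30 (adjusted p = 0.0224) and -0.26 (adjusted p = 0.0389); with the scan batch as a replicate block the last 2 had adjusted p of 0.0835 and 0.0552. Cox6a1, the widely expressed isoform of subunit 6a, read 12.01, 12.20 and 12.18 with PLKO and 11.82, 11.79 and 11.82 with shGAL, a change of -0.32 (SE 0.07, adjusted p = 0.00466). Cox8a, the widely expressed isoform of subunit 8, changed by -0.25 (SE 0.08, adjusted p = 0.0483) with shEGR2_40.9. With the block it was also called with shEGR2_38.9 (-0.25, adjusted p = 0.0223) and shGAL (-0.25, adjusted p = 0.0435).

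Cox7a2, the widely expressed isoform of subunit 7a, read 12.36, 12.38 and 11.61 with shEGR2_38.9, and its change of -0.36 (adjusted p = 0.0331) was -0.11 (adjusted p = 0.255) without replicate 3. For Cox8c the values were -0.23 (adjusted p = 0.0427) with that array and -0.17 (adjusted p = 0.159) without. With the scan batch as a replicate block their adjusted p were 0.102 and 0.198. Among isoforms of heart and skeletal muscle, Cox7a1 had group means of 6.22 to 6.59, near the dim limit of 6.27, Cox8b of 6.92 to 7.25 and Cox6a2 of 7.48 to 7.64. Cox6b2, the isoform of testis, had 6.21 to 6.41. Of 13 skeletal muscle markers 7 passed the filter, and with shEGR2_38.9 on the control diet 1 of them was lower, with a median of -0.05. Cox7a2l, a relative of subunit 7a that links complexes III and IV into supercomplexes, changed by 0.03 with shEGR2_38.9, or 0.08 without replicate 3.

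In complex V, Atp5pb, subunit b of the stalk that holds the catalytic head, read 10.50, 10.62 and 10.64 with PLKO. It read 10.11, 10.18 and 9.80 with shEGR2_38.9, 10.16, 10.44 and 10.21 with shEGR2_40.9, and 10.16, 9.97 and 10.29 with shGAL. All 9 lay below the PLKO arrays, with changes of -0.55 (SE 0.09, adjusted p = 9.28e-05), -0.32 (adjusted p = 0.0286, or 0.14 with the scan batch as a replicate block) and -0.45 (adjusted p = 0.00198). Atp5mpl, a small membrane subunit, read 10.56, 10.71 and 10.64 with PLKO, 10.33, 10.32 and 10.27 with shEGR2_38.9, 10.43, 10.40 and 10.25 with shEGR2_40.9, and 10.36, 10.54 and 10.33 with shGAL. These arrays too lay below PLKO, by -0.33 (adjusted p = 0.00167), -0.28 (adjusted p = 0.0153) and -0.23 (adjusted p = 0.0372, or 0.058 with the block).

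Other members of complex V fell with shEGR2_38.9: Atp5e, subunit epsilon of the rotor, by 0.52 (adjusted p = 0.00331) and Atp5k, a membrane subunit, by 0.54 (adjusted p = 0.00325). Atp5a1, the alpha subunit of the catalytic head, changed by -0.03, or -0.005 without replicate 3, and was not called. Atp5d changed by -0.32, or -0.18 (adjusted p = 0.114) without replicate 3, and Atp5j2 by -0.34, or -0.16 (adjusted p = 0.155). Atp5c1, the gamma subunit of the central rotor, fell by 0.28 (adjusted p = 0.0169) with shGAL. Its other probe set above the filter, with a mean of 7.15, differed by 0.004 there.

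**Figure D4:**
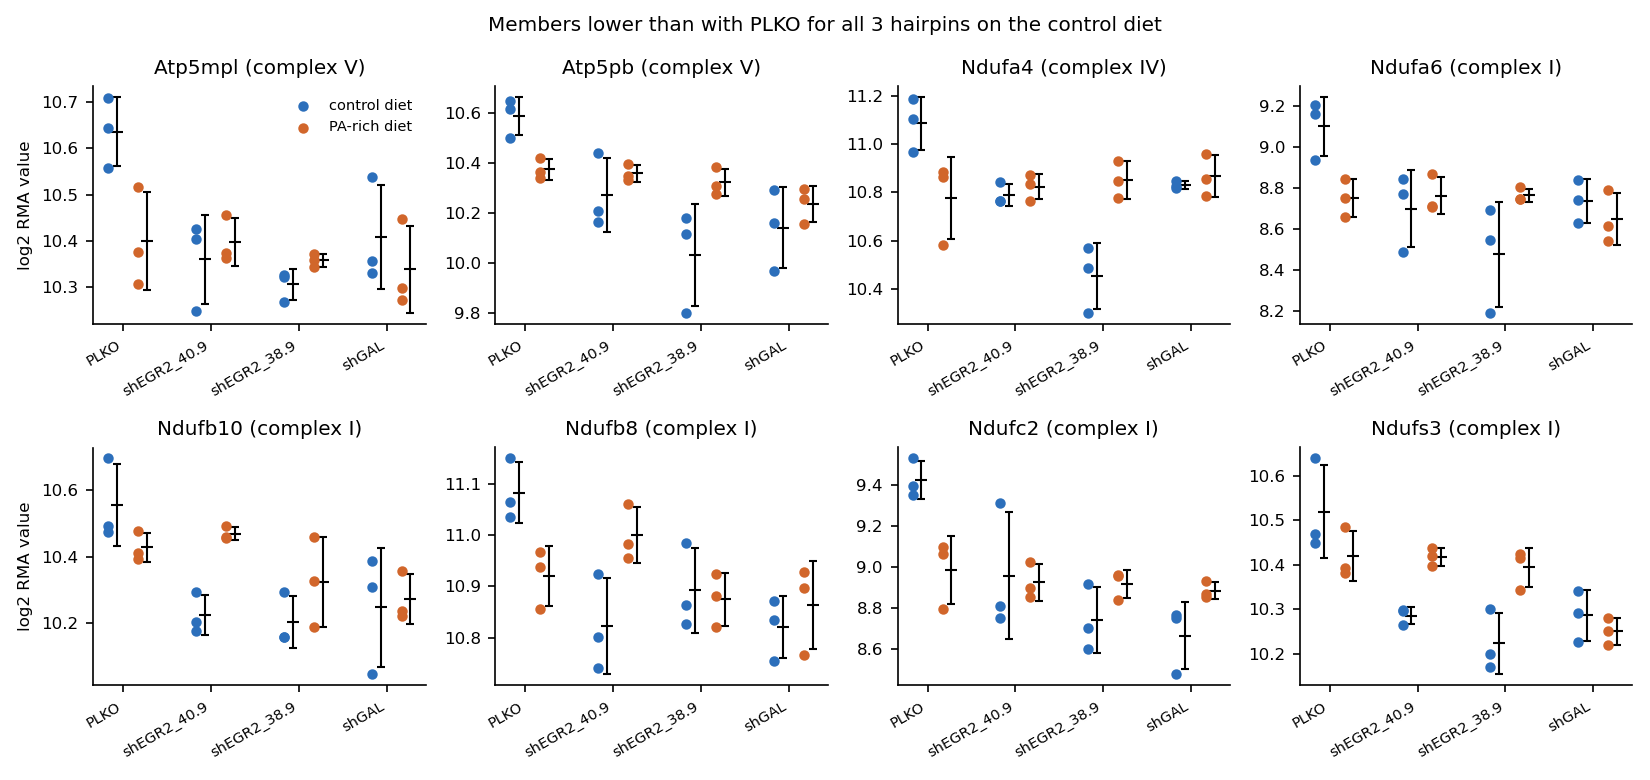
Log2 RMA level of Ndufa6, Ndufb8, Ndufb10, Ndufc2, Ndufs3, Ndufa4, Atp5mpl and Atp5pb on each array, by group, with the mean and SD of 3 arrays. These 8 genes were called lower with each of the 3 hairpins on the control diet against the same 3 PLKO arrays, so their number is not read as a result; for example, Ndufa4 lies at 10.97 to 11.19 with PLKO and at 10.30 to 10.57 with shEGR2_38.9.

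Atp5g1, 1 of the genes for subunit c of the rotor ring, had another pattern. It read 10.56, 10.83 and 10.80 with PLKO on the control diet and 10.45, 10.50 and 10.57 on the PA-rich diet. With shEGR2_40.9 it read 10.65, 10.78 and 10.76 on the control diet and 10.88, 10.87 and 10.87 on the PA-rich diet. With shEGR2_38.9 on the control diet it read 10.37, 10.30 and 10.67. The shEGR2_40.9 PA-rich arrays lay above all PLKO arrays on both diets. Atp5g1 was lower with shEGR2_38.9 than with PLKO on the control diet (-0.28, adjusted p = 0.0164), and with shGAL it was lower with the scan batch as a replicate block alone (-0.31, adjusted p = 0.0308).

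On the PA-rich diet few members differed from PLKO. With shEGR2_38.9, limma called 0 members, and 0 had an unadjusted p below 0.05; 0.625% of all genes tested were called, and the median over members was -0.01. With shEGR2_40.9, 1 member rose, Atp5g1 (0.37, SE 0.09, adjusted p = 0.0135), where 2.53% of all genes were called higher. The median there was 0.04, and 56 members lay above 0. The Atp5g1 call was lost without replicate 1 or 2 of PLKO, without replicate 2 or 3 of shEGR2_40.9, and with the scan batch as a replicate block (0.30, adjusted p = 0.0874). With shGAL, 1 member fell, Sdha as given above, where 4.77% of all genes were called lower, with a median of -0.08 and 61 members below 0. The Sdha call was lost without replicate 1 or 2 of PLKO and without any 1 of the 3 shGAL arrays; 3 members were called without control diet replicate 3 of shEGR2_38.9, and 2 without replicate 2 of shGAL on that diet. With the block, Cox8a was called in place of Sdha (-0.33, adjusted p = 0.0114).

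The median diet change over the members differed in sign between hairpins. With PLKO the PA-rich diet went with lower values: the median was -0.13 over the members and 0.01 over all genes, and 64 of 75 below 0. None of these changes passed: limma called 0 members, 20 had an unadjusted p below 0.05, and 1.18% of all genes tested were called. Within scan batches 5, 1 and 2, the median differences were -0.15, -0.13 and -0.10. The members nearest to the threshold were Ndufa4 (-0.31, adjusted p = 0.0773) and Ndufc2 (-0.44, adjusted p = 0.0791). Ndufc2 read 8.80, 9.10 and 9.06 on the PA-rich diet, all below its control diet arrays. Over all members, the PA-rich arrays of PLKO lay below its control diet arrays for 36 of 75, where this held for 10.3% of all genes. The count called was 2 without replicate 2 of shEGR2_40.9 on the control diet, and 1 without replicate 3 of shEGR2_38.9 or replicate 2 of shGAL on that diet, and 1 with the scan batch as a replicate block.

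With shEGR2_38.9, 9 members (12%) rose on the PA-rich diet and 0 fell, where 13.8% of all genes tested were called higher and 8.3% lower. The median was 0.12 over the members and 0.07 over all genes. Within scan batches 4, 1 and 3, the members' median differences were 0.05, 0.06 and 0.19. Over all genes they were 0.03, 0.06 and 0.11, and batch 3 held the array that stood apart. Ndufa4 rose by 0.40 (SE 0.08, adjusted p = 0.0013), from 10.57, 10.49 and 10.30 to 10.78, 10.85 and 10.93, with no overlap between the diets. Ndufv2 rose by 0.25 (adjusted p = 0.0218), Ndufa9 by 0.33 (adjusted p = 0.0256), Ndufa12 by 0.36 (adjusted p = 0.026) and Ndufs4, a subunit of the electron-accepting arm, by 0.40 (adjusted p = 0.0322). Uqcrc1 rose by 0.29 (adjusted p = 0.0248), Atp5pb by 0.29 (adjusted p = 0.0282), Ndufv3 by 0.30 (adjusted p = 0.0333, or 0.0523 with the scan batch as a replicate block) and Ndufa10 by 0.42 (adjusted p = 0.0454). Without replicate 3 on the control diet, 2 members were called, Ndufa4 (0.32, adjusted p = 0.00848) and Ndufs3 (0.21, adjusted p = 0.0189), and the median was 0.07. The other 8 members then had smaller changes: Ndufv2 0.15, Ndufa9 0.13, Ndufa12 0.15, Ndufs4 0.20, Uqcrc1 0.13, Atp5pb 0.17, Ndufv3 0.14 and Ndufa10 0.09. The count was 18 or 17 without replicate 1 or 2 on the control diet, and 2, 4 and 1 without replicate 1, 2 or 3 on the PA-rich diet.

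With shEGR2_40.9, limma called 0 members between the diets and 5 had an unadjusted p below 0.05, where 8.95% of all genes tested were called. The median was 0.06 over the members and 0.03 over all genes, and 68 members lay above 0. The count was 4 without control diet replicate 3 of shEGR2_38.9 and 1 without replicate 3 of shGAL on that diet. With shGAL, 0 members were called and 1 had an unadjusted p below 0.05, where 1.94% of all genes were called; the median was 0.01, and the count was 1 without replicate 3 of shGAL on the control diet. With the scan batch as a replicate block, Cox8a was called (-0.28, adjusted p = 0.0414). The 4 members of complex II were all above 0 with shGAL, with a median of 0.15.

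Whether the diet effect differed between hairpins was tested directly, as the effect with a hairpin minus that with PLKO. With shEGR2_38.9, 9 members had a higher diet effect than with PLKO and 0 a lower one, where 7.84% of all genes tested were called higher and 5.52% lower. The difference was 0.71 (SE 0.12, adjusted p = 0.000285) for Ndufa4, which read 10.58, 10.88 and 10.86 with PLKO on the PA-rich diet. Each PLKO array of Ndufa4 on the PA-rich diet lay below those on the control diet, and each shEGR2_38.9 array above. Ndufa6 had a difference of 0.64 (SE 0.16, adjusted p = 0.00897), with PLKO at 8.66, 8.75 and 8.85 and shEGR2_38.9 at 8.74, 8.74 and 8.80 on the PA-rich diet. Ndufc2 had 0.61 (SE 0.17, adjusted p = 0.0174), Atp5pb 0.50 (adjusted p = 0.0128) and Ndufa12 0.53 (adjusted p = 0.0299). Ndufs3 had 0.27 (adjusted p = 0.0462, or 0.0569 with the scan batch as a replicate block). The median over members was 0.25.

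The count of that difference moved with single arrays. It was 8 without control diet replicate 3 of shEGR2_38.9, where Ndufb4 (0.38, adjusted p = 0.123), Ndufb5 (0.28, adjusted p = 0.0511) and Ndufv2 (0.26, adjusted p = 0.0514) were lost and Ndufa12 was at 0.32. Atp5g1 (0.34, adjusted p = 0.0317) and Ndufb9 (0.33, adjusted p = 0.0124) were added there. It was 20 or 17 without its replicate 1 or 2, and 5 without replicate 2 or 3 on the PA-rich diet. It was 5 or 4 without replicate 2 or 3 of PLKO on the control diet and 3 without replicate 1 of PLKO on the PA-rich diet. With shEGR2_40.9 the difference was called for 1 member, Ndufb8 (0.34, SE 0.10, adjusted p = 0.0497), where 1.8% of all genes were called higher, with a median of 0.21. Ndufb8 read 10.98, 11.06 and 10.96 with shEGR2_40.9 on the PA-rich diet, and all 3 lay above its control diet arrays. No member was called when any 1 of 17 of the 24 arrays was left out; the others were PLKO replicate 1, shEGR2_40.9 replicate 2, shEGR2_38.9 replicates 1 and 3 and shGAL replicates 2 and 3 on the control diet, and shGAL replicate 1 on the PA-rich diet. The count was 5 without replicate 3 of shEGR2_38.9 and 2 without replicate 2 of shEGR2_40.9, both on the control diet, and 2 with the scan batch as a replicate block, where Cox8a was added (0.36, adjusted p = 0.0451). With shGAL, limma called 0 members and 12 had an unadjusted p below 0.05, where 1.33% of all genes were called; the median was 0.15 and Ndufc2 came nearest (0.66, adjusted p = 0.0536). The count was 1 without replicate 3 of shGAL, replicate 2 or 3 of shEGR2_40.9, or replicate 2 or 3 of shEGR2_38.9, all on the control diet, and 1 with the scan batch as a replicate block. Within a scan batch the median differences were 0.20 for shEGR2_38.9, 0.25 for shEGR2_40.9 and 0.15 for shGAL, and all 3 comparisons use the same PLKO arrays.

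The 2 EGR2 hairpins were compared with each other. On the control diet shEGR2_38.9 was lower than shEGR2_40.9 for 3 members, where 7.57% of all genes tested were called lower: Ndufa4 (-0.34, adjusted p = 0.0103), Atp5g1 (-0.28, adjusted p = 0.0336) and Ndufa12 (-0.35, adjusted p = 0.0444). The median was -0.10. Without replicate 3 of shEGR2_38.9, Atp5g1 alone was called (-0.39, adjusted p = 0.00175), with Ndufa4 at -0.26 (adjusted p = 0.0516), Ndufa12 at -0.14 (adjusted p = 0.263) and a median of -0.05. On the PA-rich diet 1 member was lower, Atp5g1 (-0.43, adjusted p = 0.00365), where 2.21% of all genes were called lower. The diet effect differed between the 2 hairpins for 0 members in limma, where 5.57% of all genes were called.

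Genes that work with the members, from lists outside the rule, were read in the same control diet comparisons. Of 10 other respiratory genes that passed the filter, 6 fell and 1 rose with shEGR2_38.9, 2 fell and 1 rose with shGAL, and 1 fell with shEGR2_40.9. Of all genes tested, 19.1%, 9.84% and 4.94% were called lower with these hairpins in turn. With shEGR2_38.9 and shGAL, 11.2% and 7.15% were called higher. Cycs, cytochrome c, changed by -0.33 (adjusted p = 0.0027) with shEGR2_38.9 and by -0.29 (adjusted p = 0.0127) with shGAL. Ndufab1, the acyl carrier protein of complex I, changed by -0.43 (adjusted p = 0.0049) with shEGR2_38.9. Ndufa4l2, the relative of Ndufa4 induced in low oxygen, changed by -0.63 (adjusted p = 6.09e-05) with shEGR2_38.9 and by 0.02 with shGAL. Cox4i1, the main isoform of subunit 4, changed by -0.24 (adjusted p = 0.0358) and Cox4i2, its low-oxygen isoform, by 0.22 (adjusted p = 0.0478) with shEGR2_38.9. Without replicate 3 of shEGR2_38.9, 4 of the 10 genes fell and 0 rose, with Cox4i1 at -0.09 (adjusted p = 0.253) and Cox4i2 at 0.22 (adjusted p = 0.0749).

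Assembly factors build the complexes without being part of them. With shEGR2_38.9, 6 of 13 factors of complex I fell, with 1 of 3 for complex II, 2 of 5 for complex III, 4 of 14 for complex IV and 3 of 5 for complex V, and 0 rose, where 19.1% of all genes were called lower. These counts were 5, 0, 1, 4 and 2 without replicate 3 of that group. With shGAL the counts lower were 0, 0, 0, 5 and 1, with 1 higher for complex I, where 9.84% of all genes were called lower. With shEGR2_40.9 they were 0, 0, 0, 2 and 1, where 4.94% were. Atpaf1, a chaperone of the ATP synthase head, changed by -0.48 (adjusted p = 0.000137) with shEGR2_38.9, -0.70 (adjusted p = 5.71e-06) with shGAL and -0.35 (adjusted p = 0.00752) with shEGR2_40.9. Of 11 regulators of mitochondrial biogenesis 3 fell with shEGR2_38.9, 3 with shGAL and 2 with shEGR2_40.9, where 1 rose; without replicate 3 of shEGR2_38.9, 2 fell and 1 rose with that hairpin. Ppargc1b, a coactivator of such genes, changed by -0.50 (adjusted p = 0.00038), -0.68 (adjusted p = 5.1e-05) and -0.36 (adjusted p = 0.0155) in that order. Tfam, which packages and transcribes mitochondrial DNA, changed by -0.45 (adjusted p = 0.0246) with shGAL.

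Of 13 genes of the citric acid cycle, 5 fell with shEGR2_38.9, 3 fell and 1 rose with shGAL, and 2 fell with shEGR2_40.9. Of all genes tested, 19.1%, 9.84% and 4.94% were called lower with these hairpins in turn, and 7.15% higher with shGAL. Suclg2, a subunit of succinate-CoA ligase, changed by -0.92 (adjusted p = 7.47e-07), -0.83 (adjusted p = 1.22e-05) and -0.69 (adjusted p = 9.3e-05) in that order, further than any member. Its partner Suclg1 changed by -0.37 (adjusted p = 0.00245), -0.39 (adjusted p = 0.00311) and -0.39 (adjusted p = 0.00376). Of 11 genes of glycolysis, 2 fell with shEGR2_38.9, 1 rose with shGAL and 0 were called with shEGR2_40.9. With shEGR2_38.9 less its replicate 3, 3 genes of the cycle and 0 of glycolysis fell.

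Markers of other cells moved in the same comparisons. Over all genes tested, 11.2%, 7.19% and 7.15% were called higher with shEGR2_38.9, shEGR2_40.9 and shGAL, and 19.1%, 4.94% and 9.84% lower. Of 10 endothelial markers 9 rose with shEGR2_38.9 (median 1.66) and 9 with shEGR2_40.9 (median 1.24), while with shGAL 1 rose and the median was -0.18. Their mean lay between 8.14 and 8.45 on the PLKO control diet arrays, 9.49 and 10.02 with shEGR2_38.9, 9.29 and 9.58 with shEGR2_40.9, and 8.07 and 8.58 with shGAL. Of 4 macrophage markers that passed, 3 rose with each EGR2 hairpin; with shGAL 1 rose and 2 fell. The macrophage mean lay between 7.19 and 7.36 with PLKO, 8.05 and 8.14 with shEGR2_38.9, and 7.06 and 7.20 with shGAL. Of 10 keratinocyte markers 4 fell with shEGR2_38.9, and their mean lay between 10 and 10.50, against 10.68 to 11.03 with PLKO. Of 6 pericyte and smooth muscle markers 3 rose and 1 fell with shEGR2_38.9, and of 3 fibroblast markers 1 fell; without replicate 3 of shEGR2_38.9 the pericyte counts were 3 and 0, 1 fibroblast marker rose and 1 fell, and 3 keratinocyte markers fell. Of 5 Schwann cell markers 1 rose and 1 fell with shEGR2_38.9, and 1 rose with shGAL. Of 2 adipocyte markers that passed, 1 rose with each EGR2 hairpin; their mean lay between 7.40 and 7.74 with PLKO, 8.57 and 8.75 with shEGR2_40.9, 8.08 and 8.56 with shEGR2_38.9, and 7.57 and 8.23 with shGAL. The part of these markers in the members' changes was not tested.

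Markers also moved with the diet in shEGR2_38.9 tumours, where 13.8% of all genes tested were called higher and 8.3% lower. From the control to the PA-rich diet 9 of 10 endothelial markers fell (median -1.56), and their mean lay between 8.35 and 8.58 on the PA-rich diet. Of 4 macrophage markers 3 fell (median -0.62), with a mean between 7.16 and 7.31. Of 10 keratinocyte markers 3 rose (median 0.20, or 2 and 0.11 without replicate 3 on the control diet), with a mean between 10.63 and 10.90. Of 6 pericyte and smooth muscle markers 2 fell, and of 2 adipocyte markers 1 fell. Without replicate 3 on the control diet, 3 pericyte and smooth muscle markers fell. In that fit 1 of 3 fibroblast markers rose, Dcn (0.26), while Col1a1 and Col3a1 were both at -2.12 and were not called. Of 5 Schwann cell markers 1 rose there, Erbb3 (0.33), and 0 fell. With PLKO, the endothelial median between the diets was -0.23, with 1 of 4 macrophage and 1 of 10 keratinocyte markers lower. Their part in the members' diet changes was not tested.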

How the data were processed

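Total RNA was amplified and hybridised to Affymetrix mouse arrays. The deposited values are log2 values that the authors made with RMA (affy), per the submitters' processing notes (no version named); RMA corrects background, sets the arrays to 1 distribution and summarises each probe set. The 24 array medians lay between 6.71 and 6.81. Of 45141 probe sets, 28898 named 1 gene, 551 several and 15692 none; 99.28% of the first matched the gene table by Entrez identifier. The brightest probe set by mean stood for each of 17097 genes; 132 probe sets named the 76 members, and 38 members had several. Dim genes, with a mean under the 40th percentile (6.27), were left out, which kept 11844. Arrays give no count depth; their number limits precision. Levels of different probe sets were not compared, and binding of human transcripts was not tested.

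The 8 group means were fitted with limma 3.58.1 in R 4.3.3 over 24 arrays (residual degrees of freedom 16, prior 6.21), with two-sided moderated tests, Benjamini-Hochberg adjustment over 11844 genes and a threshold of 0.05; the procedure was tested on simulated data. The labels place the 2 diets of a hairpin with the same replicate number in 1 of 6 scan batches, so numbers pair the diets; same-number correlations of deviations ran from -0.03 to 0.24, and 7 of 12 exceeded 0.1. Alternatives were the scan batch as a replicate block, no filter on dim probe sets, a stricter filter (60th percentile), the mean of all probe sets, renewed quantile normalization, array weights, only the arrays compared, and each array left out. Named members were, by rule, at most the 6 called with the smallest p per complex and comparison, the largest F per complex, tissue isoforms and all Sdh genes. Members named beside these, such as core subunits that were not called and members that 1 array decided, were chosen after their values were seen, as were the motif letters GCATGCGC and AAGATGGCG and the comparisons between the 2 EGR2 hairpins. The members and all lists were chosen with earlier results of these data known.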

Additional observations from a re-analysis of the deposited data

Results flagged for a closer look

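The difference in diet effect (PA-rich minus control) between a hairpin and PLKO, tested as an interaction in limma with Benjamini-Hochberg adjustment, passed the threshold for 9 members with shEGR2_38.9 and 1 with shEGR2_40.9. Over all genes tested, 7.84% and 1.8% were called higher, beside 12% and 1.33% of the members. With shEGR2_38.9 the difference was 0.71 for Ndufa4, 0.64 for Ndufa6, 0.61 for Ndufc2, 0.57 for Ndufb4 and 0.53 for Ndufa12. It was 0.50 for Atp5pb, 0.39 for Ndufb5, 0.37 for Ndufv2 and 0.27 for Ndufs3. Without control diet replicate 3 of shEGR2_38.9, the array that stood apart, Ndufb4 was at 0.38, Ndufb5 at 0.28 and Ndufv2 at 0.26, none of the 3 past the threshold any longer, and Ndufa12 was at 0.32, still past it. With shEGR2_40.9 it was 0.34 for Ndufb8. Each value is the diet effect with the EGR2 hairpin minus that with PLKO, so it takes in the change with PLKO too. All of these values lie above 0, and all use the same 6 PLKO arrays.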

How the results depend on the processing

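The alternatives were run on every comparison. Of the members' results, 8053 kept direction and side of the threshold, 312 lost it, 53 passed it only there, 208 of members not called changed sign, and 2 reversed: with the mean of all probe sets, Uqcrq changed by 0.13 with shEGR2_38.9 and by 0.092 with shGAL on the control diet; the cause was not tested. The calls past the threshold under all 31 alternatives were 7 of 37 with shEGR2_38.9, 6 of 21 with shGAL and 0 of 9 with shEGR2_40.9 against PLKO on the control diet, 1 of 9 for the diet with shEGR2_38.9, and 3 of 9 and 0 of 1 for its difference from PLKO with shEGR2_38.9 and shEGR2_40.9.

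Counts of members called moved as follows, and the cause was not tested. The share of all genes under each setting is not given, so these moves are not read as particular to the members. With the scan batch as a replicate block they were 1, 1 and 0 for the diet with PLKO, the diet with shGAL and shEGR2_40.9 against PLKO on the PA-rich diet, and 2 and 1 for the diet difference with shEGR2_40.9 and shGAL; it moved no other count by more than 1.5 times. With only the arrays compared, fewer arrays, they were 8, 10 and 2 for shEGR2_38.9, shGAL and shEGR2_40.9 on the control diet, 1 and 1 for the diet with shEGR2_38.9 and shEGR2_40.9, and 4, 6 and 1 for the diet difference with shEGR2_38.9, shEGR2_40.9 and shGAL. With array weights they were 52 and 24 for shGAL and shEGR2_40.9 on the control diet, 6 and 3 for them on the PA-rich diet, 5, 6, 4 and 2 for the diet with PLKO, shEGR2_40.9, shEGR2_38.9 and shGAL, 15, 15 and 4 for the diet difference with shEGR2_38.9, shEGR2_40.9 and shGAL, and 46 in the F test. With the mean of all probe sets they were 14 (control diet) and 0 (PA-rich diet) for shEGR2_40.9 against PLKO, and 18, 0 and 1 for the diet difference with shEGR2_38.9, shEGR2_40.9 and shGAL. With renewed quantile normalization they were 1 and 5 for the diet with PLKO and shEGR2_38.9, 3 for shGAL on the PA-rich diet and 0 for the diet difference with shEGR2_40.9; the stricter filter gave 1 for the diet difference with shGAL. Renewed quantile normalization gave medians of -0.20 for shEGR2_38.9 on the control diet and 0.20 for its diet difference. Leaving out PLKO control diet replicate 1 gave 0.31 for the latter.

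Leaving out 1 array gave 28 to 42 calls with shEGR2_38.9, 11 to 41 with shGAL and 2 to 22 with shEGR2_40.9 on the control diet, and 0, 0 to 3 and 0 to 1 on the PA-rich diet. It gave 0 to 2, 0 to 4, 1 to 18 and 0 to 1 for the diet with PLKO, shEGR2_40.9, shEGR2_38.9 and shGAL, 3 to 20, 0 to 5 and 0 to 1 for the diet difference with shEGR2_38.9, shEGR2_40.9 and shGAL, and 17 to 32 in the F test. The median for the diet with PLKO was -0.17 without replicate 1 on the control diet and -0.10 without replicate 1 on the PA-rich diet. With 3 arrays per group, calls near the threshold depend on single arrays, and members near the limit of 6.27, such as Cox6b2 and Cox7a1, have little signal over background.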
